A study of Mus musculus with 4 samples.

Results

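Intergenic long non-coding RNAs (lncRNAs) that are known from AK full-length cDNAs were followed through osteoclast formation of RAW264.7 cells. AK with digits is the GenBank numbering of mouse cDNAs that were cloned and sequenced whole, largely by the RIKEN mouse cDNA project. The lncRNA lists of the 24 h, 72 h and 96 h comparisons with 0 h were pooled to 3937 probes, and a probe was kept if intergenic was its only listed relationship, its symbol was AK and digits, and its spot was flagged as well above background by Agilent Feature Extraction on 1 array or more. This gave 594 probes of 593 AK cDNAs, which are the members described here, out of 60804 probes in the table of log2 values. The other 1386 intergenic probes of the lists are named otherwise. The lists had been chosen on the measured change against 0 h, and 556 members came from lists of increases only, 31 from lists of decreases only and 7 from both. The lists are held here in part, which takes in that of increases at 96 h and most of all those of decreases, and 0 entries of the 96 h decreases were analysed here. The excess of increases among the members is therefore a property of the choice and not a result.

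RAW264.7 is a mouse macrophage line that fuses into multinucleated osteoclasts under RANKL, the osteoclast differentiation cytokine, with M-CSF, the growth factor of the macrophage lineage. The cells carry no genetic change or further treatment by the labels, and were taken at 0 h (monocyte), 24 h (pre-osteoclast), 72 h (mature osteoclast) and 96 h (activated osteoclast) of culture with RANKL at 100 ng/mL and M-CSF at 50 ng/mL. Each time point has 1 array, so no value has a replicate and no p-value was computed. Slide 1 holds the arrays of 0 h and 72 h, slide 2 those of 24 h and 96 h, so that slide and time cannot be told apart in the comparisons that cross slides. The cell type was not checked against marker genes, because the files used here pair no protein-coding gene name with a probe. As a bulk measure, more RNA per cell and more cells that make it cannot be told apart.

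Long intergenic RNAs are transcribed by RNA polymerase II away from the coding genes known at the time of annotation, and many are capped, polyadenylated and made in few cell types. Some act in the nucleus as scaffolds, as Neat1 does in paraspeckles, while for most no function is known. A full-length cDNA gives the start, the end and the strand of such a transcript, but a cDNA clone can also derive from an intron or from the extended 3′ end of a coding gene.

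The 60-base probes of 9 members on which the results turn are given here 5′ to 3′, from the lncRNA lists. Capitals mark AATAAA, the letters of the main polyadenylation signal. AK089350 (chr8:66495059-66496946, + strand), AK046587 (chr7:105885296-105886866, - strand), AK080501 (chr7:25087352-25088542, - strand) and AK149231 (chr7:25089321-25089907, - strand) were high at 72 h and low at 96 h. AK027975 (chr12:85432760-85433580, - strand), AK044014 (chr9:120675536-120676271, + strand) and AK145143 (chr8:25415119-25429220, - strand) went the opposite way. AK133148 (chr14:24425164-24429822, - strand) was high and AK079356 (chr4:56957174-56959609, - strand) low at every time after 0 h. Coordinates are on mouse GRCm38.
AK089350: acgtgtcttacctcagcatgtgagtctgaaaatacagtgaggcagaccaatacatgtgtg
AK046587: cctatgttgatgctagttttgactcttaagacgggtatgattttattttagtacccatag
AK080501: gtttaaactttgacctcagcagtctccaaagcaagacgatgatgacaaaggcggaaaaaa
AK149231: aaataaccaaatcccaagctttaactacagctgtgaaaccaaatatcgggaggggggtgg
AK027975: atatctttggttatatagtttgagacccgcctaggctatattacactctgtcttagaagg
AK044014: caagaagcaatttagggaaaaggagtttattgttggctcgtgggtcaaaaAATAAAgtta
AK145143: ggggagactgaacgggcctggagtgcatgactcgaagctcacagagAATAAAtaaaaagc
AK133148: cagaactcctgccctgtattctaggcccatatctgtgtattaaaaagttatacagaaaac
AK079356: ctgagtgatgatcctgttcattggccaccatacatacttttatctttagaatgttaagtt
The hexamer was present in the probes of AK044014 and AK145143 of these 9. Over all members 89 probes (15.0%) held AATAAA and 30 (5.05%) its reverse complement TTTATT. Among the other intergenic probes of the lists 109 (7.86%) held AATAAA and 38 (2.74%) TTTATT. A match describes letters in the probe only, and whether the transcript is cut there was not tested.

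Of the 594 members, 312 (52.5%) overlapped a gene of the RefSeq annotation of GRCm38.p6. A protein-coding gene was overlapped by 114 members, of which 64 ran on its strand, 26 on the opposite strand and 23 on a strand that is not known here, while 1 overlapped genes of differing or unknown strand. A RefSeq lncRNA gene and no coding gene was overlapped by 182 members, a pseudogene or small RNA gene alone by 16, and no gene by 277, while 5 members lie on scaffolds that were not set against RefSeq. Of the 475 members outside coding genes, 168 lay within 10 kb of one. Where the strands were known (137 members), 55 lay downstream of the gene on its strand, 23 downstream on the opposite strand, 27 upstream on its strand and 32 upstream on the opposite strand. An overlap with a RefSeq lncRNA gene is in itself no conflict with the listing as an intergenic lncRNA. For the 114 members that overlapped a coding gene, the array's annotation and RefSeq differ. For a probe inside a coding gene on its strand the cDNA and the gene's own transcript cannot be told apart.

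The members were dim probes. Their median log2 normalized signal was 4.84, 5.67, 5.62 and 5.77 at 0, 24, 72 and 96 h, while the median of all probes in the table was 6.05 on each array. Of the 594 members, 283 (47.6%) exceeded background clearly on the 0 h array, 351 (59.1%) on the 24 h array, 360 (60.6%) on the 72 h array and 485 (81.6%) on the 96 h array. The 96 h array also reached lowest, with its lowest probe well above background at a log2 value of 4.41, against 4.81 at 0 h, 5.17 at 24 h and 5.15 at 72 h. Its share of all probes well above background was 66.8%, against 58.9% to 62.4% on the other arrays. Well above background on all 4 arrays were 230 members (38.7%). By the choice, every member had passed this limit on some array. Of all probes, 43247 (71.0%) passed it on some array and 32758 (53.8%) on all 4. The 53.8% thus also counts probes that no array detected. The like set for the members is the 43247, of which the 32758 are a part, so 53.8% is too low to set beside 38.7%. On exactly 1 array 229 members were well above background, namely that of 96 h for 130, of 72 h for 50, of 24 h for 46 and of 0 h for 3. The like counts over all probes are not given here, so nothing is read from these as a trait of the members. Most members were chosen from lists of increases against 0 h. Their lower signal and detection at 0 h were thus largely fixed by the choice and are a description. The 130 members seen at 96 h only had a median log2 value of 5.16 there, at the level that bounded detection at 24 h and 72 h, and the part that this lower reach has in the count was not tested. Members in coding genes were well above background on all 4 arrays in 52.6% of cases, those in lncRNA genes in 32.4% and those outside genes in 36.8%.

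**Figure D1:**
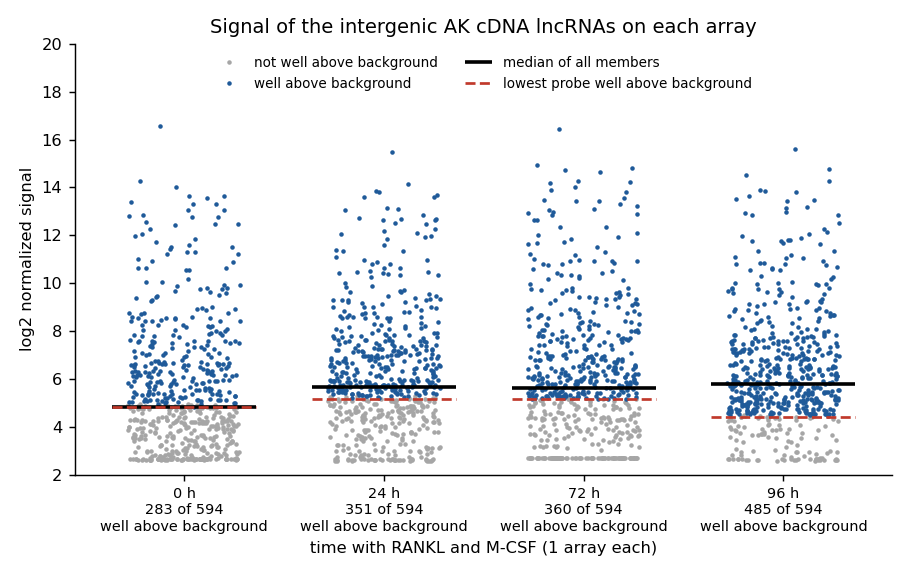
Log2 normalized signal of the 594 members on each array (1 point a member), by whether the probe was well above background there, with the members' median as a black line and, dashed, the lowest value of any probe well above background on that array. The number of members well above background runs from 283 at 0 h to 485 at 96 h, where the dashed line is lowest at 4.41. Most members were chosen from lists of increases against 0 h, which favours low values there.

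A member entered a comparison if either of its arrays had it well above background. A value that was not, and lay below the lowest value of probes well above background on that array, was raised to it. The resulting fold is a lower bound if the RNA gave no more signal than the value used, and is given as "at least". The limit was 2-fold. At 24 h, 97 of 383 members (25.3%) were past 2-fold higher than at 0 h and 28 (7.31%) lower, where 3.4% of all probes were higher and 6.14% lower. At 72 h, 152 of 384 (39.6%) were higher and 10 (2.60%) lower, with 4.35% and 5.31% over all probes. At 96 h, 176 of 496 (35.5%) were higher and 29 (5.85%) lower, with 5.72% and 8.42% over all probes. These 3 comparisons chose the members, so nothing is read from their distance to the background. Past 2-fold at no later time were 199 members (33.5%) under this rule, although each stands on a list. Without this filter and floor, 188 members were higher at 24 h and 244 at 72 h. The lists of increases at those times hold the same numbers of members. The changes nearest to the limit on the log2 scale were 1.001 (AK085058) inside and 0.981 (AK054525) outside at 24 h, 1.002 (AK082258) and 0.997 (AK037439) at 72 h, and 1.000 (AK087425) and 0.996 (AK157067) at 96 h.

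The comparisons among the later arrays were not those of the lists, but share their arrays. From 24 h to 72 h, 108 of 458 members (23.6%) were past 2-fold higher and 73 (15.9%) lower, with 8.32% and 8.2% over all probes. Scaling the arrays to their 75th percentile gave 94 higher and 100 lower, so the balance of directions turned with the scaling. From 24 h to 96 h, within slide 2, 74 of 536 (13.8%) were higher and 80 (14.9%) lower, with 5.33% and 6.51% over all probes. That balance also turned, to 82 and 62 with the 75th percentile. From 72 h to 96 h, 115 of 545 (21.1%) were higher and 137 (25.1%) lower, with 10.9% and 12.9% over all probes, and the 75th percentile gave 173 and 112. The median change of all probes from 72 h to 96 h was -0.04 on the log2 scale as deposited and 0.09 under that scaling. A member listed for its value on 1 array is bound to differ from the other arrays more often, so nothing is read from the distance to all probes here either. No direction for the members as a group held under both scalings. The other intergenic probes of the lists were chosen the same way. Of these, read with the deposited values only, 20.2% were higher and 21.2% lower from 24 h to 72 h. The members had more higher than lower there as deposited, a balance that turned with the scaling. They gave 12.2% and 16.5% from 24 h to 96 h, and 20.6% and 24.2% from 72 h to 96 h.

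**Figure D2:**
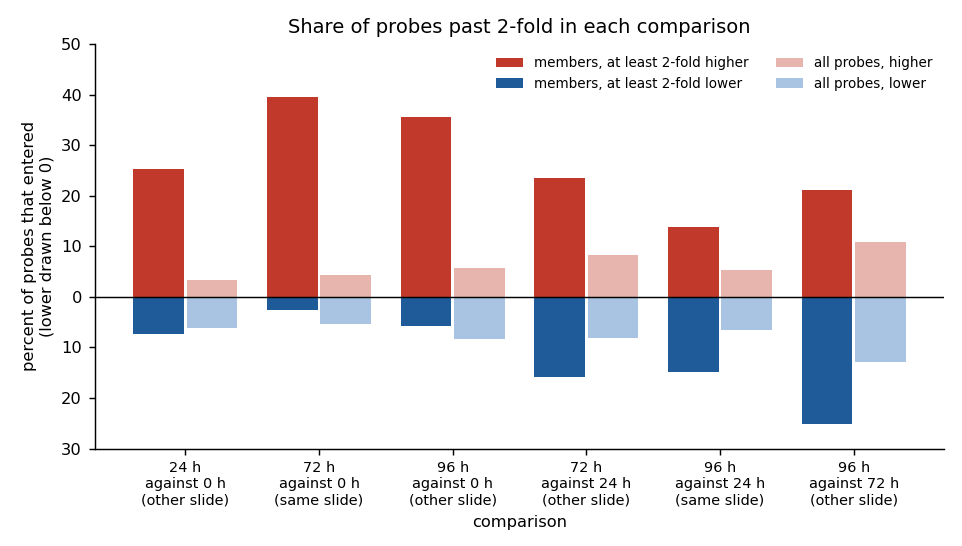
Percent of the members and of all probes that were at least 2-fold higher (above 0) or lower (drawn below 0) in each comparison, among probes that entered it. The first 3 comparisons chose the members. From 24 h to 96 h, within 1 slide, 13.8% of members were higher and 14.9% lower, against 5.33% and 6.51% of all probes.

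The time courses against 0 h fell into a few shapes. Past 2-fold higher at 72 h alone were 124 members (20.9%, against 3.12% of the probes well above background on some array), at 96 h alone 120 (20.2% against 3.58%) and at 24 h alone 53 (8.92% against 1.77%). At 24 h and 96 h together it was 38 (6.4% against 1.01%), at 72 h and 96 h 8 (1.35% against 0.218%), at 24 h and 72 h 1 (0.168% against 0.121%) and at all 3 times 4 (0.673% against 0.109%). The 24 h and 96 h arrays share a slide, and 38 members were higher on both of them while 1 was higher at the neighbouring times 24 h and 72 h. Slide and time cannot be told apart in this count. Lower at 24 h and 96 h alone were 10 members (1.68% against 3.17%), at 24 h alone 10 (1.68% against 1.07%), and at all 3 times 3 (0.505% against 0.772%). The members were chosen on these changes, so nothing is read from the distance of these shares. Opposite directions at different times were found for 22 members, 17 of them well above background on all 4 arrays. Among these 22, 15 were higher at 72 h and lower at 96 h than at 0 h (2.53% of members against 0.403% of probes), and 5 the reverse (0.842% against 0.556%). The share of the reverse shape is near that of all probes, and by the same choice nothing is read from the distance of the other.

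**Figure D3:**
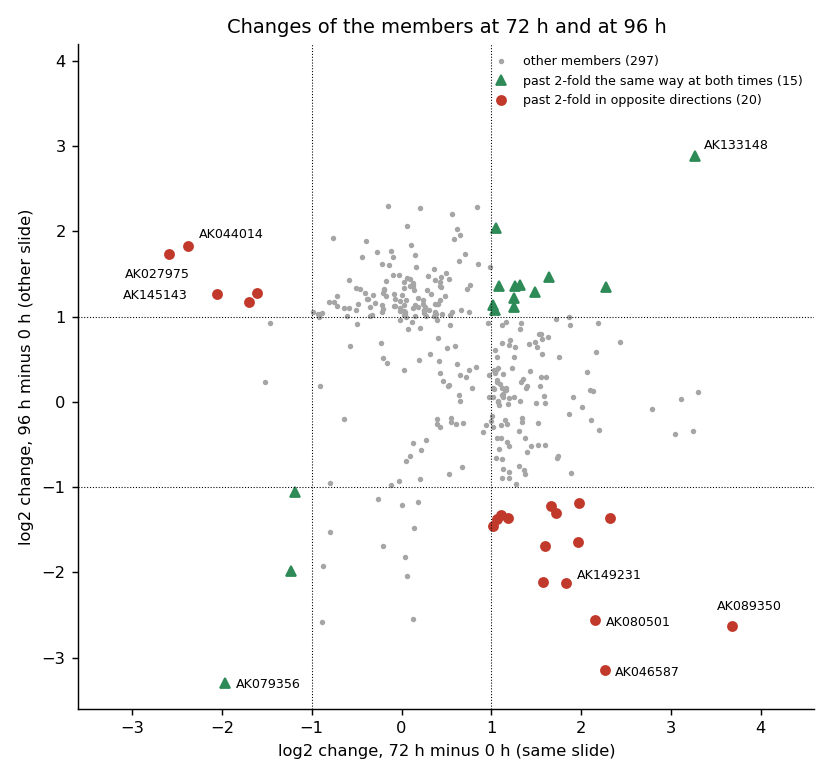
Log2 change against 0 h at 72 h (same slide as 0 h) and at 96 h (other slide) for the 332 members that entered both comparisons, with dotted lines at 2-fold. Circles are 20 members past 2-fold in opposite directions, triangles 15 past it the same way, and a change with a side that was not well above background is taken as a lower bound, as for AK133148.

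AK089350 showed the largest change from 72 h to 96 h among members well above background on both arrays. Its log2 signal was 8.06, 5.67, 11.74 and 5.43 at 0, 24, 72 and 96 h. The 72 h array alone was high, and the value at 0 h lay between it and the arrays of slide 2. This was 12.8-fold above 0 h at 72 h and 79.3-fold above 96 h. AK089350 lies in no RefSeq gene, 8.53 kb upstream of Tma16 on the opposite strand.

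AK046587 measured 8.09, 8.60, 10.35 and 4.95 at 0, 24, 72 and 96 h. It was 4.80-fold higher at 72 h and 8.85-fold lower at 96 h than at 0 h. Within slide 2 it fell 12.6-fold from 24 h to 96 h, so this decrease did not cross slides. AK142636, which overlaps the lncRNA Gm30550 and lies 150 bases upstream of Eif3b, a subunit gene of translation initiation factor 3, measured 8.60, 9.31, 10.18 and 6.49, and also fell 7.07-fold within slide 2.

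AK080501 and AK149231 lie 778 bases apart on the strand of Pou2f2, within the span of this gene, which encodes the B cell and macrophage transcription factor Oct-2. AK080501 measured 9.79, 10.36, 11.95 and 7.23 and AK149231 measured 11.24, 11.62, 13.06 and 9.11. Both were highest at 72 h and lowest at 96 h. Against 0 h AK080501 was 4.45-fold higher at 72 h, within slide 1, and AK149231 was 3.55-fold higher. Between the arrays of slide 2 they fell 8.74-fold and 5.67-fold. The probes gave the same order of the 4 arrays and share no run of 20 bases, while both members came from the list of increases at 72 h. Other members with this shape were fainter or smaller in change, among them AK015411 (6.87, 7.14, 9.19 and 5.51) and AK079788 (9.64, 8.70, 11.31 and 8.42), named here after their values were seen.

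The reverse shape was shown by 5 members, all well above background on all 4 arrays. AK027975 measured 8.23, 6.09, 5.64 and 9.97 at 0, 24, 72 and 96 h. It was thus low at 24 h and 72 h and highest at 96 h, with a 6.04-fold decrease at 72 h within slide 1 and a 14.7-fold rise from 24 h to 96 h within slide 2. It overlaps the RefSeq lncRNA Gm40477, and its nearest coding gene is Fos, which starts 40.3 kb away on the opposite strand. Fos encodes an AP-1 subunit without which osteoclasts do not form.

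AK044014 followed the same course with 7.57, 5.45, 5.19 and 9.41. It fell 5.20-fold from 0 h to 72 h within slide 1 and rose 15.5-fold from 24 h to 96 h within slide 2. It runs on the strand of the RefSeq lncRNA Gm39458, and its 5′ end lies 93 bases inside the annotated start of that gene.

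AK145143 measured 7.86, 7.24, 5.80 and 9.13, AK084007 8.41, 7.21, 6.79 and 9.69, and AK084660 9.41, 9.55, 7.71 and 10.57. For these 3 members too the 72 h array was lowest and the 96 h array highest. AK084007 lies on the strand of Sh2d4b, an SH2 domain protein gene, within its span, and AK084660 lies 2.12 kb downstream of Ulbp1, which encodes a ligand of the NKG2D receptor, on its strand. From 24 h to 96 h, within slide 2, the rises were 3.69-fold for AK145143, 5.59-fold for AK084007 and 2.03-fold for AK084660.

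**Figure D4:**
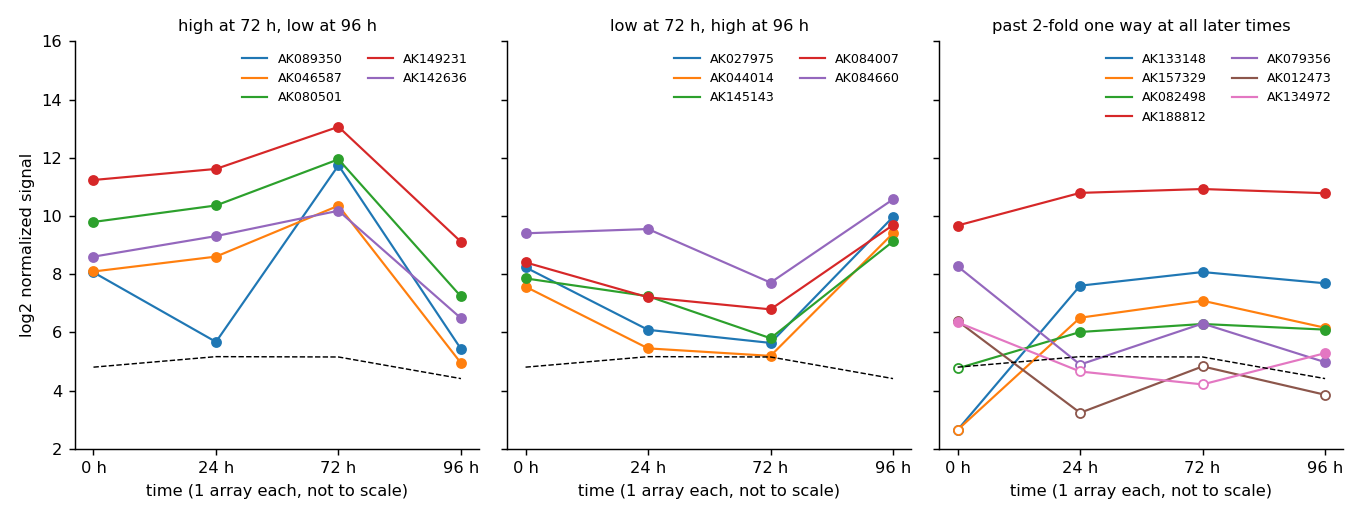
Log2 normalized signal of named members on the 4 arrays, with filled points well above background, open points not, and a dashed line at the lowest value of any probe well above background. In the left panel 72 h is highest and 96 h lowest of the 4 arrays, in the middle panel 72 h is lowest and 96 h highest, and in the right panel the later arrays lie on 1 side of 0 h.

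Higher by 2-fold at all later times were 4 members. AK133148 was the 1 member with primers in the study's qPCR of commonly changed lncRNAs, whose values were not used here. On the arrays it was not well above background at 0 h (2.65, near the bottom of the table) and measured 7.61, 8.07 and 7.69 at 24, 72 and 96 h. The lower bound of its rise was thus 6.96-fold for 24 h, 9.64-fold for 72 h and 7.37-fold for 96 h. The 3 later arrays lay within 1.38-fold of each other, on both slides. AK157329 also was not well above background at 0 h (2.65) and measured 6.50, 7.09 and 6.16 later, at least 4.87-fold higher at 72 h. AK082498 measured 4.76, not well above background, and then 6.01, 6.29 and 6.10. AK188812, a short cDNA in the pseudogene Gm6473, was well above background throughout, with 9.67 and then 10.79, 10.93 and 10.78.

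AK133148 is an unspliced cDNA of 4661 bases on the strand of the RefSeq lncRNA Gm41109, and its 5′ end lies 32 bases inside the annotated start of that gene. The RefSeq promoter of Gm41109 (chr14:24429805-24430104, GRCm38.p6, - strand) is shown 5′ to 3′ because this member was not well above background at 0 h and measured at each later time. It holds 250 bases before the annotated start and 50 from it on. Capitals mark TGGAAA, the core letters bound by NFAT factors, and TATAAA, the TATA box letters.
Gm41109 promoter: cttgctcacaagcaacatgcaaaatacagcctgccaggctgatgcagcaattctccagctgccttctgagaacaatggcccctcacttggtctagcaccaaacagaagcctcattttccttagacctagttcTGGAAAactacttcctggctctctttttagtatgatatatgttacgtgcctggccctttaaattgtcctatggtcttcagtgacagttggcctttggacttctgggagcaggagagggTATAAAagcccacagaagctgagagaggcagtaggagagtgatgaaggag
TATAAA begins at the annotated start, so the 5′ end of the cDNA lies 32 bases after the first of its letters, and TGGAAA begins 118 bases before the annotated start. Of the members, 56 had their 5′ end within 500 bases of a RefSeq start on their strand, 25 of them within 1 base, and these starts gave 55 distinct promoters. On either strand TGGAAA was found in 10 of the 55 (18.2%) and in 21.4% of all 32817 RefSeq promoters, TATAAA in 6 (10.9%) and 13.6%, the AP-1 letters TGANTCA in 6 (10.9%) and 7.81%, the E-box CACGTG in 7 (12.7%) and 7.15%, and the PU.1 letters GAGGAAGT in 0 and 3.20%. None of these motifs lies within another. The matches describe letters and not binding.

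Lower by 2-fold at all later times were 3 members. AK079356 measured 8.27, 4.89, 6.30 and 4.98 at the 4 times, where the 24 h value was not well above background. It was 3.90-fold lower at 72 h within slide 1, at least 8.59-fold lower at 24 h and 9.80-fold lower at 96 h. It lies 527 bases downstream of Frrs1l on the strand of that gene. AK012473, within the span of the transcription factor gene Klf12, measured 6.39 at 0 h and was not well above background later. AK134972, within that of the extracellular matrix gene Tnr, measured 6.35 at 0 h and 5.29 at 96 h, and was not well above background between.

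Among members well above background on both arrays, those that rose most at 72 h within slide 1, beside AK089350, were AK163331 (9.89-fold), AK009210 (9.48-fold), AK041809 (8.66-fold) and AK015284 (8.25-fold). AK009210, on the strand of Klhl33 within its span, measured 7.57, 8.09, 10.81 and 7.23. AK041809 measured 5.10, 4.95, 8.21 and 5.13 and AK015284 5.34, 5.23, 8.39 and 4.96, and both were not well above background at 24 h. For all 3 the 72 h array stood alone. Lower bounds above 12.8-fold were found for AK083073 and AK031769, named after their values were seen and well above background at 72 h alone. AK083073 measured 9.34 there, at least 23.1-fold above 0 h, and AK031769 8.74, at least 15.3-fold above it.

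AK163331 and AK163355 lie on scaffolds that are placed on no position of a chromosome, and their probes share the 30 bases in capitals, so they can detect the same transcript.
AK163331: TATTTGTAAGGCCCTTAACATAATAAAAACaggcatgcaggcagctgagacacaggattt
AK163355: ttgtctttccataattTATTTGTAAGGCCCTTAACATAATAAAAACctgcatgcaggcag
AK163331 measured 4.96, 5.16, 8.26 and 5.07 and AK163355 6.93, 6.59, 9.72 and 6.85. The 72 h array was the high one for both probes. AK163355 was 6.92-fold above 0 h at 72 h. Since the probes share bases, their likeness is not independent evidence of a change. The probes of AK163333 and AK006653 share 25 and 21 bases with probes of listed transcripts that are no members. The lists mark 16 members' probes for cross-hybridisation.

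Several members followed the slides. AK038301 measured 6.93, 9.37, 7.77 and 9.21, AK078683 6.42, 8.29, 6.49 and 8.49, and AK032387 5.50, 7.42, 6.06 and 7.70. In all 3 the arrays of slide 2 were higher than those of slide 1. AK038301 was 5.41-fold above 0 h at 24 h and 4.87-fold at 96 h, and lies in no RefSeq gene, 76.3 kb upstream of Olig3. AK144704 went the opposite way with 12.49, 9.83, 12.62 and 9.94, 6.31-fold below 0 h at 24 h, with a log2 change of 0.13 at 72 h. The brightest member, AK172651, 1.45 kb downstream of the synaptic scaffold gene Homer1, measured 16.56, 15.50, 16.45 and 15.59. AK006564 measured 14.01, 12.86, 14.20 and 12.83. Both were lower on slide 2 than on slide 1. For these members the time and the slide cannot be told apart.

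At 24 h the steepest rises beside those, among members well above background on both arrays, were AK043060 (5.70 to 7.80, 4.30-fold) and AK186556 (5.08 to 7.02, 3.84-fold). AK186556, a cDNA of 169 bases, lies within the span of Atp6v0a2, which encodes a subunit of the proton-pumping V-ATPase. It measured 4.77 at 72 h, not well above background, and 5.94 at 96 h. Within slide 2 AK016924 fell between 24 h and 96 h from 7.62 to 5.00, 6.12-fold, and AK045106 from 7.82 to 4.70, 8.66-fold. AK045106 was not well above background on either array of slide 1. In the same comparison AK144969 rose from 9.34 to 11.75, 5.32-fold, and AK045060, on the strand of Eya4 within its span, from 10.62 to 12.95, 5.05-fold.

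AK137804 rose from 24 h to 72 h 6.81-fold (5.65 to 8.42), and AK020705 fell 4.09-fold (8.94 to 6.91). AK019949, which lies on the strand of the lncRNA gene Mirt1, measured 6.64, 7.86, 5.99 and 6.44 and fell 3.65-fold. AK144500 (7.84 to 5.88) and AK018240 (7.36 to 5.46) fell 3.88-fold and 3.74-fold. At 96 h AK035545 rose from 5.31 to 7.60, 4.91-fold, and AK133618 from 4.94 to 7.22, 4.86-fold. Each of these comparisons crosses slides, and these members too are the steepest among those well above background on both arrays. Members below that limit at 0 h had higher lower bounds, such as AK045106 and AK085096 at 24 h (at least 8.06-fold and at least 7.77-fold) and AK137540 at 96 h (at least 8.61-fold), of which AK085096 and AK137540 were named after their values were seen.

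The 10 brightest members were well above background on every array. Signals of different probes are on no common scale, so their order says little on the amounts of RNA. AK039250 (13.58, 14.16, 14.94 and 13.85), AK079793 (13.65, 13.83, 14.81 and 13.82), AK004187 (13.33, 13.85, 14.72 and 13.52), AK162104 (13.07, 13.16, 14.63 and 13.64) and AK033429 (12.77, 13.05, 14.29 and 13.42) were highest at 72 h. AK033429 lies on the strand of Fgd4, the gene of an activator of the small GTPase Cdc42, within its span. AK019420 (13.66, 13.59, 13.44 and 14.79) and AK217854 (13.40, 13.61, 13.55 and 14.53) were highest at 96 h. AK004187 overlaps the coding gene Klhl24 and AK019420 the coding gene Csnk1a1, and the strand of both genes is not known here. AK015474 measured 14.28, 12.48, 14.02 and 13.15.

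Some loci were read by the probes of 2 members. Within 10 kb of each other lay 30 members in 15 pairs, 11 of them on the same strand, and in 3 pairs both members were well above background on all 4 arrays. One of these is the Pou2f2 pair above. AK143058 and AK039250, 314 bases apart on the strand of the ETS factor gene Etv1, measured 11.52, 11.87, 12.94 and 11.88, and 13.58, 14.16, 14.94 and 13.85. The 72 h array was highest for both, 2.69-fold and 2.56-fold above 0 h. AK143011 and AK080134, 1942 bases apart on the strand of Ms4a6c, a membrane protein gene of the MS4A family, measured 6.77, 7.24, 9.20 and 7.47, and 7.51, 8.17, 9.0 and 8.21. Again 72 h was highest, 5.40-fold and 2.81-fold above 0 h, both within slide 1. All 6 members of these pairs came from the list of increases at 72 h, so their likeness there was fixed by the choice and is a description.

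The other pairs held a member that was not well above background on every array. AK028038 and AK040402 overlap on the strand of Ctsl, which encodes the lysosomal protease cathepsin L. AK040402 measured 10.63, 10.96, 11.70 and 11.16 and AK028038 was well above background at 96 h alone. AK034606, 187 bases upstream of the RNA-binding protein gene Igf2bp3 on its strand, measured 11.74, 12.06, 11.01 and 12.98, and its neighbour AK042156 on the opposite strand was well above background at 24 h alone.

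**Figure D5:**
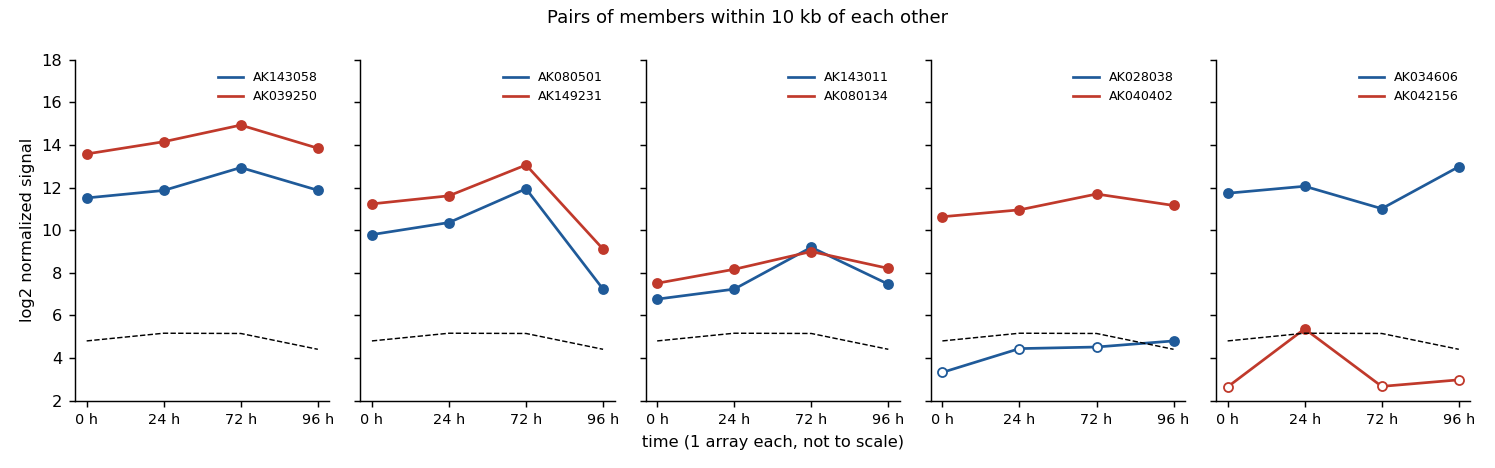
Log2 normalized signal on the 4 arrays of the 5 brightest pairs of members within 10 kb of each other, with filled points well above background, open points not, and a dashed line at the lowest value of any probe well above background. Both members were well above background throughout in the first 3 pairs, and there 72 h was highest for every probe.

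Of 27 genes known for osteoclast formation (receptors, kinases, transcription factors, fusion proteins and resorption enzymes), Csf1, Cd47 and Fos were the nearest coding gene of a member. The share of all coding genes that are nearest to a member is not given here, so nothing is read from this count. AK076420 lies 3.10 kb downstream of Csf1, the gene of M-CSF, on its strand. It overlaps the lncRNA Gm40121, which runs on the opposite strand, and measured 7.35, 6.83, 8.67 and 7.36. It was 2.5-fold higher at 72 h than at 0 h within slide 1, and 1.01-fold at 96 h. AK135986 and AK076728 lie 38.1 kb and 43.3 kb downstream of Cd47, which encodes a surface protein known from macrophage fusion. Both overlap the lncRNA Gm5486. AK135986 was not well above background at 0 h and 24 h and measured 6.13 at 72 h and 6.18 at 96 h, with lower bounds of 2.5-fold and 2.59-fold against 0 h. AK076728 measured 5.74 at 72 h, the 1 array on which it was well above background. These members and AK148054 were named after their values were seen. AK148054 lies in Neat1, the lncRNA that builds paraspeckles, and measured 9.80, 10.90, 10.43 and 10.26, 2.14-fold higher at 24 h than at 0 h. Whether any member acts on its neighbour was not tested.

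Listed as decreased at one time and increased at another were 7 members, among them AK089350 and AK145143. The other 5 were near the limit of detection. AK033619 was well above background at 72 h alone (6.08), and AK039782 (5.74), AK083595 (5.68), AK135774 (5.61) and AK156377 (6.34) at 96 h alone. For these 5 the listed decrease at 24 h compares values that were not well above background on either array.

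The members shared properties that the choice did not use. Their median transcript length was 1734.5 bases (range 155 to 6763), against 727.5 for the other intergenic probes of the lists. The span on the genome equalled the transcript length within 5 bases, as for a cDNA without introns, in 378 members (63.6%) and in 43.0% of the other intergenic probes. Probe GC content had a median of 38.3% (range 16.7% to 58.3%), against 43.3%. The strands were even, with 287 members on + and 307 on -, and chromosomes 14 (46), 10 (44) and 3 (40) carried the most members. The shares past 2-fold by structure are given with no test. Past 2-fold higher at 72 h were 40.0% of the unspliced and 38.8% of the spliced members that entered, and at 96 h 36.5% and 33.9%. By locus, 39.8% of members in coding genes, 41.4% of those in lncRNA genes and 36.5% of those in no gene were past 2-fold higher at 72 h. At 24 h these shares were 18.5%, 25.2% and 28.9%, and at 96 h 36.3%, 36.4% and 34.4%. The contrasts with 0 h chose the members, and those of 24 h and 96 h cross slides. Nothing is therefore read from the shares by structure or by locus.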

How the data were processed

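Expression in RAW264.7 cells was measured at 0, 24, 72 and 96 h with 1-colour Agilent arrays (Arraystar Mouse LncRNA V3.0), 1 a time point. The authors read the scans in Agilent Feature Extraction (11.0.1.1 per the file headers) and deposited for each spot a processed signal, a median signal and a local background (intensities) and flags. They also deposited log2 values of 60804 probes, quantile normalized in GeneSpring, which are the values used here. They differed by at most 0.03 from a quantile normalization of the processed signals made here. The filter behind that table is not given in the sources used here.

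The members were found in the lncRNA lists by relationship, symbol and the flag for a signal well above background in any spot of the probe. The members and gene lists were chosen with earlier results of these data known. The fold change columns of the lists were not used. Named are the member with qPCR primers, for each of the 6 comparisons the 5 steepest rises and the 5 steepest falls among members well above background on both arrays, the 10 with the highest mean, those past 2-fold one way at all 3 later times, the 5 brightest groups within 10 kb, probes that share a run of 20 bases, and members listed both ways. The lists' start was raised by 1 to count from 1. Of 1596 listed probes with a RefSeq gene of the same symbol and chromosome, 98.9% overlapped it, so GRCm38.p6 of RefSeq was used for genes and promoters, although the scanner headers name an older build. The strand of a RefSeq gene is known here only where its promoter is given.

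Among 19 to 22 bright probes printed at least 10 times, the median SD between spots was 0.05 to 0.07 on the log2 scale, which covers the printing and scanning of 1 array only. The alternatives were the processed signals with quantile normalization, the 75th percentile, normexp (offset 50, median signal), a filter on both arrays, no filter and no floor, and a limit of 1.5-fold. The functions were tested on simulated data. Normexp was run in limma 3.58.1 (R 4.3.3) and all else in Python 3.11.15 with numpy 2.4.6, pandas 2.3.3 and, for plots, matplotlib 3.10.9.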

Additional observations from a re-analysis of the deposited data

Results flagged for a closer look

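Against 0 h, 15 members were past 2-fold higher at 72 h and past 2-fold lower at 96 h, and 5 members went the opposite way, lower at 72 h and higher at 96 h. These are 2.53% and 0.842% of the members, against 0.403% and 0.556% of all probes well above background on some array, so that the 5 are near the share of all probes. The members were chosen on changes against 0 h, 244 of them from the list of increases at 72 h. Nothing is therefore read from the distance of the 15 to all probes. They are given here because the same contrast with 0 h gave opposite directions at different times. With 1 array a time point the difference was not tested. The 72 h array shares the slide of the 0 h array and the 96 h array does not, so that slide and time cannot be told apart in the 96 h change. Within slide 2 the change from 24 h to 96 h had the direction of the change at 96 h for the 7 members high at 72 h that are named above, and for all 5 of the reverse shape. Of these 7, AK089350 (5.67 to 5.43) and AK079788 (8.70 to 8.42) fell by less than 2-fold. AK158071 and AK142779, also of the 15, were not well above background on either array of slide 2, so no change within it was measured. Of the 15, 11 were well above background on both arrays of both comparisons, as were all 5 of the reverse shape. Under the 75th percentile 12 of the 15 and all 5 kept both calls, and under normexp with an offset of 50 it was 6 of the 15 and all 5.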

How the results depend on the processing

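With 1 array a time point no replicate could be left out, and a model with a slide effect could not be fitted. No paired analysis was possible because each time point has 1 array. Counts of members past 2-fold with the processed signals under quantile normalization were within 1.5 times of those reported in all 12 counts. With the 75th percentile, 20 members were lower at 72 h than at 0 h (10 as deposited) and 173 were higher at 96 h than at 72 h (115). With normexp and an offset of 50, which pulls dim values together, the counts at 24, 72 and 96 h against 0 h were 32, 78 and 63 higher, and 12 and 15 lower at 24 h and 96 h. It gave 60 higher and 36 lower from 24 h to 72 h, 38 and 25 from 24 h to 96 h, and 59 and 76 from 72 h to 96 h. Where both arrays had to be well above background, 55 were higher at 24 h than at 0 h, 41 lower from 24 h to 72 h, and 45 higher and 37 lower from 24 h to 96 h. With no filter and no floor, 188, 244 and 307 were higher at 24, 72 and 96 h against 0 h, 52 and 36 lower at 24 h and 72 h, 179 higher and 157 lower from 24 h to 72 h, 150 higher from 24 h to 96 h, and 224 higher from 72 h to 96 h. The 188 and 244 equal the numbers of members on the lists of increases at 24 h and 72 h. They thus restate the choice of the members. A limit of 1.5-fold gave 176 higher at 24 h against 0 h, 29 lower at 72 h and 51 lower at 96 h, 170 higher and 126 lower from 24 h to 72 h, 130 and 133 from 24 h to 96 h, and 177 and 214 from 72 h to 96 h. The share of increases among the calls moved by over 10 percentage points in 5 cases. These were the 75th percentile from 24 h to 72 h (59.7% to 48.5%) and from 72 h to 96 h (45.6% to 60.7%), normexp from 24 h to 96 h (48.1% to 60.3%), and no filter from 24 h to 96 h (61.0%) and from 72 h to 96 h (58.9%). All 60 changes of members named for the steepest changes stayed past 2-fold in their direction under the quantile, 75th percentile and normexp alternatives. The 2 alternatives on filter and floor could not move them, because they were chosen well above background on both arrays. Normexp moved them by a median of 0.85 on the log2 scale.

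Signal over background limits most counts. Of the 594 members, 311 were not well above background at 0 h, so that their rise is taken as a lower bound or rests on no measured start. Values at the bottom of the table, near a log2 value of 2.6, have no order.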
